A study of Mus musculus with 20 samples.

Results

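Mdm2, Mdm4, Trp53, Cdkn1a, Ccng1, Gadd45a, Trp53inp1, Aen and Zmat3 form the feedback circuit around the transcription factor p53, and they are 9 of the 22556 genes in the deposited table, found there by gene name. Newly made RNA was measured in wild-type E14 mouse embryonic stem cells (E14-WT), an established line, kept in serum with LIF on gelatin, during treatment with a transcription inhibitor. The groups were untreated cells (0 h), cells given DRB at 100 µM for 2 h or 5 h, and cells given triptolide at 10 µM for 1 h or 2 h. Every group was exposed for 10 min to fresh medium with 4-thiouridine at 150 µM, or without it as a background control, and each of the 10 groups had 2 replicates, 20 samples in all. DRB inhibits the kinases that release RNA polymerase II into elongation, and triptolide blocks initiation through the XPB subunit of TFIIH. Each of the 5 conditions has a single column in the table, given as reads per kb after background removal and never below 0, so no value has a replicate error and no difference was tested. The genes were picked with the results of these columns known, so the values below describe them and support no further statement.

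p53, the product of Trp53, is a stress-responsive transcription factor that halts the cell cycle or starts cell death. It activates Mdm2, whose product is the ubiquitin ligase that marks p53 for degradation, which closes a negative feedback loop, and Mdm4 encodes the Mdm2 relative that also binds and restrains p53. The other genes are known p53 targets: Cdkn1a encodes the cyclin-dependent kinase inhibitor p21, Ccng1 cyclin G1, Gadd45a a growth arrest and DNA damage protein, Trp53inp1 a nuclear protein that promotes p53 activity, Aen an apoptosis-enhancing nuclease and Zmat3 an RNA-binding zinc finger protein.

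Promoter sequence is shown for Mdm2, the gene with the highest DRB values, and for Cdkn1a and Ccng1, whose windows matched the p53 site with fewest mismatches. Windows of 300 bases, 250 before and 50 after an annotated start, were taken from RefSeq on GRCm38.p6, where 7 of the 9 genes had 10 windows; Zmat3 and Trp53inp1 had none. Capitals mark the first 20 bases that match the p53 consensus with fewest mismatches, the consensus being a pair of 10-base half-sites read with no gap, which is its own reverse complement and so covers both strands.
Cdkn1a, chr17:29090729-29091028, plus strand: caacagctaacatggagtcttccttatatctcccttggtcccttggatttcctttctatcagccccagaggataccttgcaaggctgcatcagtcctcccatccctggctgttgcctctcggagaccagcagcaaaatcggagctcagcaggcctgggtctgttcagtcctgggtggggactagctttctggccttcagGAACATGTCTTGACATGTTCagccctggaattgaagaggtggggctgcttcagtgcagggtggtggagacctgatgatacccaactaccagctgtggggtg
Ccng1, chr11:40755237-40755536, minus strand: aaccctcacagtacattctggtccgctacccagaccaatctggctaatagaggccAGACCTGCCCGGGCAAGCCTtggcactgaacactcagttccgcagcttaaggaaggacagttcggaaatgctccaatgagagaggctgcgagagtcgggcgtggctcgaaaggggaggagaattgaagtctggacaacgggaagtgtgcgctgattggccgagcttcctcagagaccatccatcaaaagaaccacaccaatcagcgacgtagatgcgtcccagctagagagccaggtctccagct
Mdm2, chr10:117710709-117711008, minus strand: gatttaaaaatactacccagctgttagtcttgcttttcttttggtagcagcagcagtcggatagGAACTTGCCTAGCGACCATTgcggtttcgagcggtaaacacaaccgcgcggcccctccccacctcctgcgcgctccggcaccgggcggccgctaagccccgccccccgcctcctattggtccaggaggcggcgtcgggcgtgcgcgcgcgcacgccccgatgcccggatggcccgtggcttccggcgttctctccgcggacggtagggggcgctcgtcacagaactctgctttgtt
The Cdkn1a site, in the more upstream of 2 windows of that gene, had 1 mismatch in 20, and so had the Ccng1 site. Only 0.107% of 27025 genes had a window with at most 1 mismatch. In the Mdm2 window the first half-site matched without a mismatch and the second had 5, and 76.6% of all windows matched as well or better. The Aen start region held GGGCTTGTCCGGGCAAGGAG (chr7:78895937-78895956, plus strand) with 3 mismatches, a site shared by both of its overlapping windows. The best matches of Trp53 and Gadd45a had 3 mismatches each, those of the 2 Mdm4 windows 3 and 6, and that of the other Cdkn1a window 5; at most 3 mismatches occurred in 7.204% of all genes. An exact half-site was present in 6 of the 7 genes and in 9.55% of all genes. These are letter matches only; the second, intronic Mdm2 promoter that is known to respond to p53 was not searched.

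All 9 genes had more than 1 net read per kb in at least 1 condition, the filter that 8773 genes passed. Net reads, recovered from the step size of each gene's values, summed over all genes to 1245285 in untreated cells, 332909 at 2 h and 95064 at 5 h in DRB, and 73616 at 1 h and 61972 at 2 h in triptolide. Library depth per sample is not given in the sources used here, and a depth difference between columns and a difference in transcription cannot be told apart; in bulk samples the same holds for fewer cells and less RNA per cell. Bracketed ranges after a ratio or percent are its exact 95% Poisson limits, with net reads taken as plain counts, and cover counting error only. The counting error of the removed background is not in them, so they can be too narrow, most of all where net reads are few or 0. Of the embryonic stem cell markers, Pou5f1, Sox2, Nanog, Esrrb and Klf4 all had signal without drug (8.64 to 69.6 net reads per kb), while the 5 fibroblast and feeder markers reached at most 0.385 (3 at 0) and the 4 primitive endoderm markers at most 0.0906 (2 at 0). Of 4 neural markers, Tubb3 (11.1) and Pax6 (4.71) were above 1 net read per kb; the part of such cells in the results was not tested.

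Mdm2 (ENSMUSG00000020184, chromosome 10, 117688875 to 117710758, minus strand, GRCm38) stood at 10.9 net reads per kb in untreated cells, 23.7 at 2 h and 31.8 at 5 h in DRB, and 0 at 1 h and 0.229 at 2 h in triptolide. Both DRB columns were above the untreated column and both triptolide columns were near 0, which no other gene of the 9 showed on the deposited scale. The DRB values were 2.18 times (1.87 to 2.55) and 2.92 times (2.52 to 3.40) the untreated value, from 519 and 695 net reads against 238, and the direction held with columns scaled to equal totals and with quantile normalization. The later DRB value was 1.34 times (1.19 to 1.503) the earlier. After 2 h of triptolide Mdm2 had 5 net reads, or 2.10% (0.676 to 4.97) of the untreated level.

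Ranked by level per kb among the 8773 genes, Mdm2 was in place 1325 in untreated cells, 122 at 2 h and 9 at 5 h in DRB. Its part in all net reads was 0.0191% (exact binomial interval 0.0168 to 0.0217) in untreated cells, 0.156% (0.143 to 0.1699) at 2 h and 0.731% (0.678 to 0.787) at 5 h in DRB. Within the 9 genes it held 10.9% of net reads in untreated cells, 35.2% at 2 h and 59.2% at 5 h in DRB. Among 8560 genes with signal without drug, 153 had a higher ratio than Mdm2 after 2 h of DRB and 54 after 5 h.

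**Figure D1:**
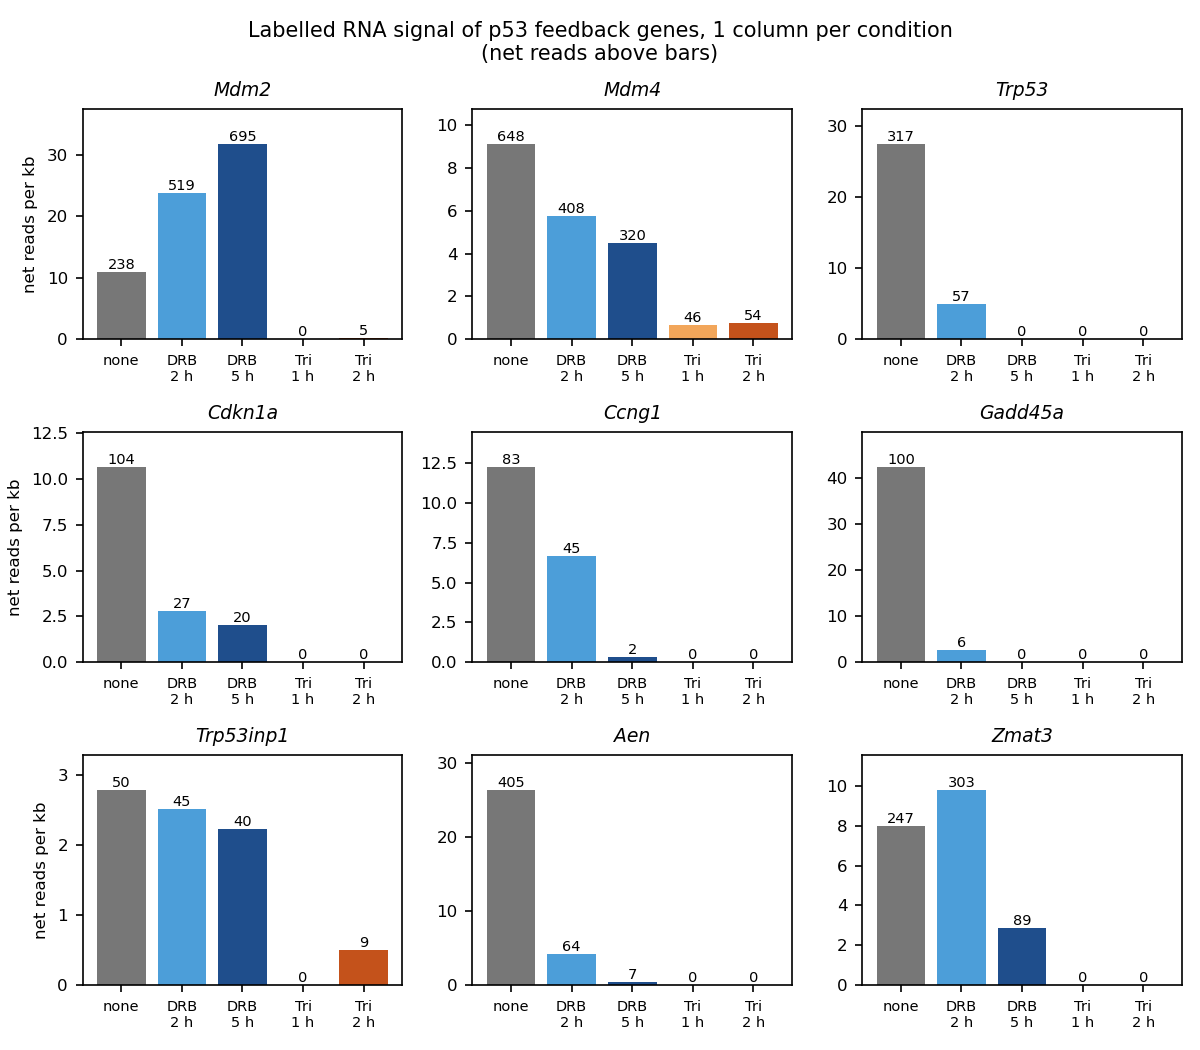
Net reads per kilobase (vertical axes, each from 0) of the 9 genes without drug (none), in DRB and in triptolide (Tri), 1 bar per condition with its net reads above it and no replicate error. Mdm2 is highest at 31.8 after 5 h of DRB, Zmat3 peaks at 9.81 after 2 h, and 8 of 9 genes are listed at 0 after 1 h of triptolide.

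Mdm4 (chromosome 1, 132959484 to 133030561), the longest of the genes, was at 9.12 net reads per kb without drug, 5.74 and 4.50 in DRB and 0.648 and 0.760 in triptolide. It was lower than without drug in every drug column, but its DRB values were 63.0% (55.5 to 71.4) and 49.4% (43.1 to 56.5) of the untreated value, where the median gene was at 20.0% and 1.24%. It was also the one gene of the 9 with signal after 1 h of triptolide, 46 net reads or 7.10% (5.14 to 9.58), followed by 54 net reads or 8.33% (6.19 to 11.0) after 2 h. All 4 values were above the untreated level once columns were scaled to equal totals or quantile-normalized, so the direction of Mdm4 rests on the deposited scale.

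Trp53 itself (chromosome 11, 69580359 to 69591873) was at 27.5 net reads per kb in untreated cells and 4.95 after 2 h of DRB, and was listed at 0 in the 3 other columns. Its 57 net reads after 2 h of DRB were 18.0% (13.3 to 23.9) of the untreated 317, close to the median gene, and the direction held under both scalings. Trp53 and Mdm2 thus lay on opposite sides of the untreated value in both DRB columns. Trp53 was above Mdm2 per kb without drug (27.5 against 10.9) and below it after 2 h of DRB (4.95 against 23.7). After 5 h of DRB, where Trp53 was listed at 0, so were 47.3% of the 8560 genes with signal without drug.

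Zmat3 (chromosome 3, 32334792 to 32366014) was at 8.00 net reads per kb in untreated cells, 9.81 at 2 h and 2.88 at 5 h in DRB, and listed at 0 in both triptolide columns. Its value was highest after 2 h of DRB, at 123% (103 to 146) of the untreated one, and stood at 36.0% (28.0 to 46.1) after 5 h, a value that was above the untreated one under both scalings. Between the DRB times it was at 29.4% (22.9 to 37.3), whereas Mdm2 was at 134%.

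Trp53inp1 (chromosome 4, 11156431 to 11174379) was at 2.79 net reads per kb without drug, 2.51 and 2.23 in DRB, 0 after 1 h and 0.501 after 2 h of triptolide. With 50, 45 and 40 net reads, its DRB values of 90.0% (58.8 to 137) and 80.0% (51.4 to 124) of untreated were within counting error of no difference. After 2 h of triptolide its 9 net reads were 18.0% (7.78 to 37.0). Its DRB and its later triptolide values were above the untreated one under both scalings.

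Cdkn1a (chromosome 17, 29090976 to 29100727) was at 10.7 net reads per kb without drug, 2.77 and 2.05 in DRB, and was listed at 0 in triptolide. Its 27 and 20 net reads in DRB were 26.0% (16.3 to 40.0) and 19.2% (11.3 to 31.2) of the untreated 104. The later of these was above the untreated value under both scalings. Between the DRB times it was at 74.1% (39.4 to 137), within counting error of no difference. Under equal totals and quantile normalization its 5 h value was above its 2 h value, with log2 differences of 1.295 and 1.25.

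Ccng1 (chromosome 11, 40748552 to 40755311), whose start region also held a site with 1 mismatch, was at 12.3 net reads per kb without drug and 6.66 and 0.296 in DRB. These were 54.2% (36.9 to 78.9) and 2.41% (0.287 to 8.98) of untreated, the later from 2 net reads; the earlier was above the untreated value under both scalings. Aen (chromosome 7, 78895854 to 78911209) was at 26.4, 4.17 and 0.456 net reads per kb in the same 3 columns, or 15.8% (11.9 to 20.6) and 1.73% (0.690 to 3.59) of untreated. Gadd45a (chromosome 6, 67035096 to 67037457), the shortest gene and without drug the highest at 42.4 net reads per kb, was at 2.54 after 2 h of DRB and listed at 0 after 5 h. Its 6 net reads were 6.0% (2.15 to 13.5) of the untreated 100. At 5 h of DRB 47.3% of all genes with signal without drug were also listed at 0. The 3 genes were listed at 0 in both triptolide columns.

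**Figure D2:**
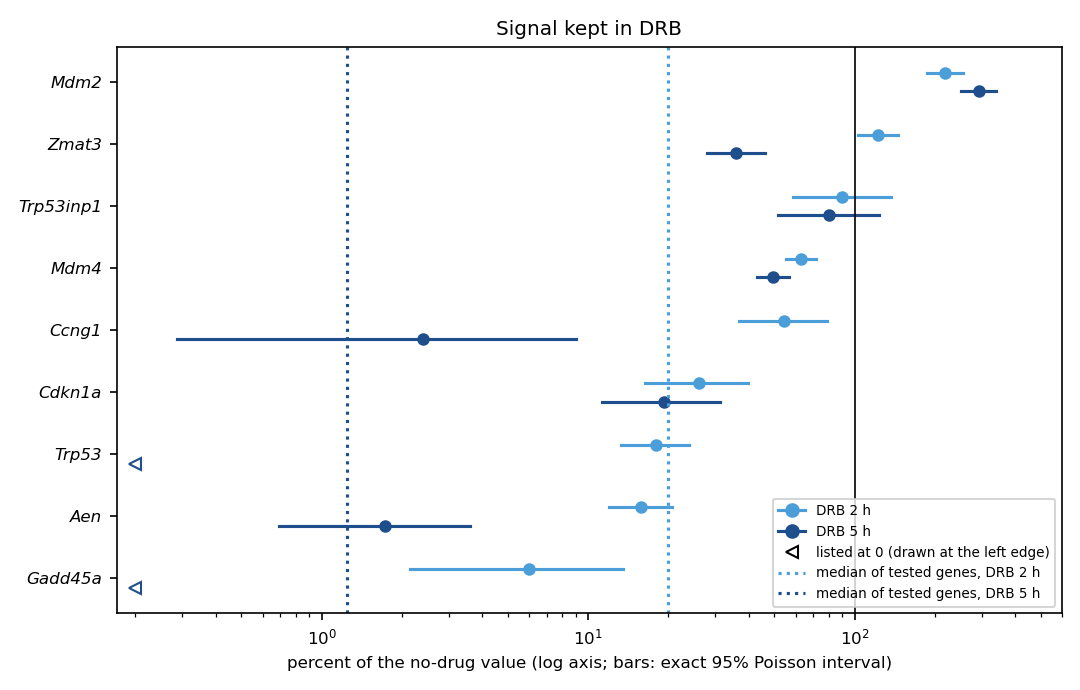
Value in DRB as a percent of the untreated value (log axis) for each gene, with exact 95% Poisson intervals as bars, and open triangles at the left edge for genes listed at 0. Mdm2 lies above 100% at both times, from 218% to 292%. Trp53 and Gadd45a are listed at 0 after 5 h, as are 47.3% of 8560 genes with signal without drug. Dotted lines mark the median gene at 20.0% and 1.24%.

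Ordered by the percent kept after 2 h of DRB, the sequence was Mdm2, Zmat3, Trp53inp1, Mdm4, Ccng1, Cdkn1a, Trp53, Aen and Gadd45a. The interval of Mdm2 did not overlap that of any other gene. Intervals overlapped between Zmat3 and Trp53inp1, among Trp53inp1, Mdm4 and Ccng1, between Ccng1 and Cdkn1a, and among Cdkn1a, Trp53 and Aen. That of Gadd45a overlapped those of Trp53 and Aen. Differences between genes were not tested, and overlap alone does not show that genes were alike. The order followed gene length in part (Spearman rho 0.72 over the 9 genes, 0.69 over 8 without Mdm2), while over 8559 genes with a length it was -0.06. It ran against the untreated level per kb (rho -0.77), which is the denominator of the ratio. These are descriptions of 9 genes that share the same columns.

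After 2 h of DRB, 4 of the 9 genes were lower than without drug by at least 1 unit of log2(value + 1), 1 (Mdm2) was higher and 4 were within that size; with equal totals 1 was lower and 4 were higher, beside 23.6% and 12.5% of all genes. On the deposited scale, over all 8773 genes 66.1% were lower and 2.2% higher by this rule, and the median difference was -0.79 for the 9 genes and -1.27 for all. Summed, the 9 genes kept 67.2% (62.9 to 71.9) of their net reads and 48.9% (45.2 to 52.8) without Mdm2, beside 26.7% for all genes. After 5 h of DRB 6 were lower, 1 (Mdm2) higher and 2 within, where the background was 85.5% lower and 1.03% higher; the medians were -1.94 and -1.86, and with equal totals 4 were lower and 5 higher, beside 53.4% and 14.9% of all genes. The sum then kept 53.5% (49.8 to 57.5), but 24.5% (22.1 to 27.0) without Mdm2 and 7.63% for all genes. Since the genes were chosen on these columns, nothing is read from the counts. From 2 h to 5 h of DRB 5 genes were lower and none higher, against 29.7% and 1.13% of all genes; with equal totals 4 were lower and 4 higher, beside 38.9% and 15% of all genes. Those 5 were Trp53, Ccng1, Gadd45a, Aen and Zmat3, and Mdm2, with a log2 difference of 0.41, was the single gene with a higher value at 5 h on the deposited scale.

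**Figure D3:**
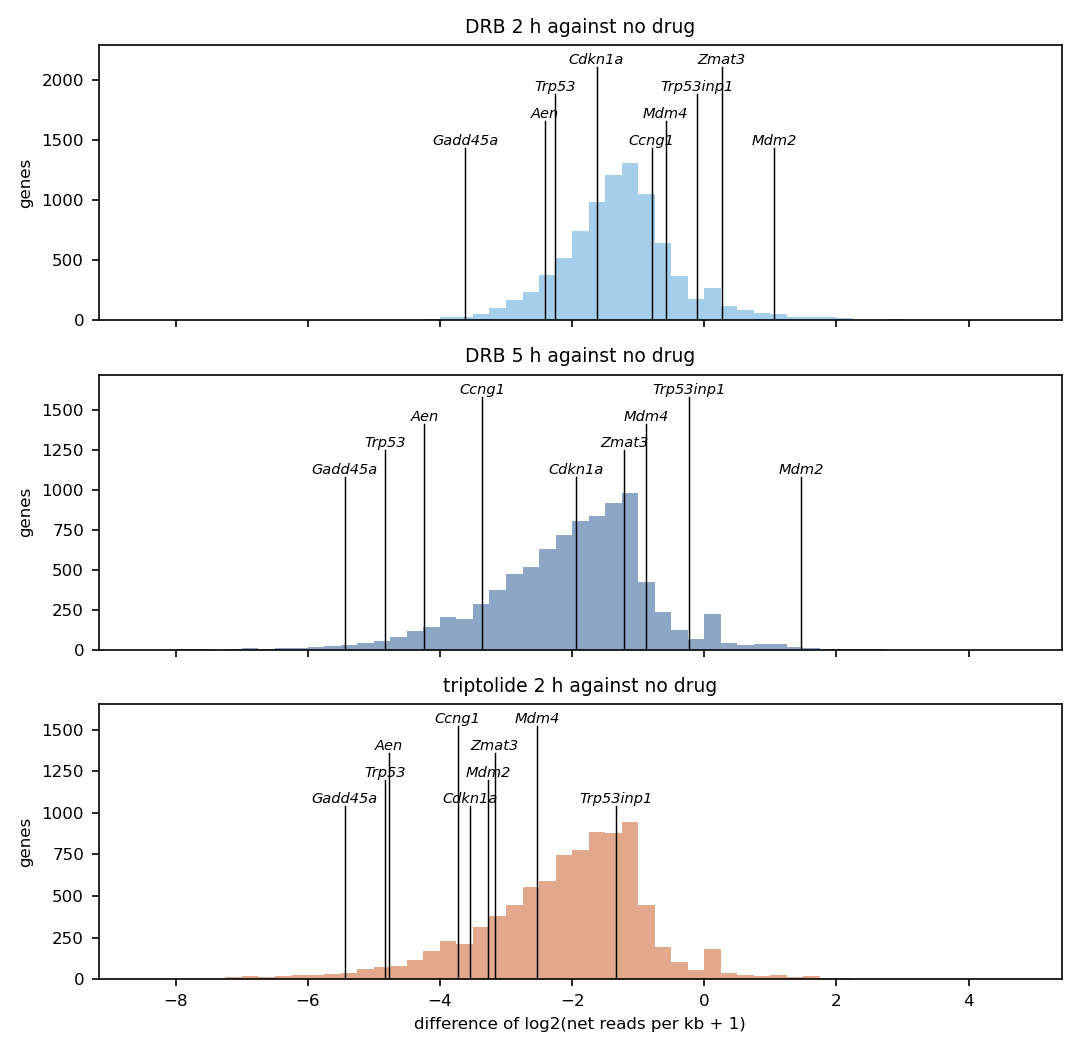
Histograms of the difference in log2(net reads per kb + 1) from no drug over 8773 genes (vertical axis, number of genes), with vertical lines for the 9 genes. In DRB the 9 genes spread from the lower tail (Gadd45a at -3.61 after 2 h) to the upper (Mdm2 at 1.06), while after 2 h of triptolide all lie below 0, between -5.44 and -1.33.

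Triptolide gave a different picture. All 9 genes were lower by the size rule at both times, against 87.9% of all genes after 1 h and 87.0% after 2 h, while 0.787% and 0.866% of all genes were higher. With equal totals 8 of the 9 were lower after 1 h with none higher, beside 63.6% and 12.4% of all genes. After 2 h 7 were then lower and 1, Trp53inp1, higher, beside 53.8% and 16.7%. After 1 h 8 were listed at 0, as were 59.3% of the 8560 genes with signal without drug, and after 2 h 6 were, beside 49.5%. The 9 genes together had 46 and 68 net reads, or 2.10% (1.53 to 2.81) and 3.10% (2.40 to 3.95) of the untreated 2192, beside 5.91% and 4.98% for all genes. Mdm4 held all 46 of the first and 79.4% of the second. Between the 2 triptolide times no gene passed the size rule, which 3.03% of all genes did as lower and 3.35% as higher.

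At the matched time of 2 h the drugs can be set side by side, at different doses. Every one of the 9 genes was higher in DRB than in triptolide by the size rule, as were 33.2% of all genes (1.04% were lower), with a median difference of 2.37 against 0.58. By sign alone, under both scalings Trp53inp1 was lower in DRB and the other 8 genes were higher. By the size rule 7 were higher and 0 lower with equal totals, beside 41.7% and 19.9% of all genes. Quantile normalization also gave 7 and 0, beside 16.5% and 15.5%. Mdm4 was then within the size rule, with log2 differences of 0.47 and 0.15. The ratios that follow are on the deposited scale. Mdm2 had 519 against 5 net reads, a ratio of 104 (44.2 to 321), and Mdm4 408 against 54, a ratio of 7.56 (5.68 to 10.2). Zmat3 had 303 and Trp53 57 net reads in DRB, and both were listed at 0 in triptolide.

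The genes next to Mdm2, Trp53 and Aen are given here, chosen after their values were seen, because the use of strand in counting is not given in the sources used here. Cpm, a carboxypeptidase gene that lies 1523 bases beyond the 3' end of Mdm2 on the opposite strand, was at 0.207 net reads per kb untreated, 0.519 and 2.80 in DRB and 0.0864 in both triptolide columns. Its 12, 30 and 162 net reads put it above its untreated value at both DRB times, as Mdm2 was. Slc35e3, a transporter-family gene on the other side of Mdm2 and 22921 bases away, was at 19.05% of untreated in both DRB columns. This rests on 4 net reads in each, against 21 without drug.

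Wrap53, which starts 104 bases from Trp53 on the opposite strand and encodes a telomerase-associated protein, was at 9.89 net reads per kb in untreated cells, 6.81 at 2 h and 14.7 at 5 h in DRB. At 5 h it stood at 148% of untreated while Trp53 was listed at 0. Isg20, an exonuclease gene 2215 bases downstream of Aen on the same strand, had 5 net reads without drug and 21 at each DRB time, while Aen went from 405 to 64 and 7. Annotated genes overlap Mdm4, Cdkn1a and Gadd45a on the opposite strand, for 639, 1046 and 859 bases; none of them has a value here. Whether reads of neighbouring or overlapping transcripts enter any of these values was not tested.

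**Figure D4:**
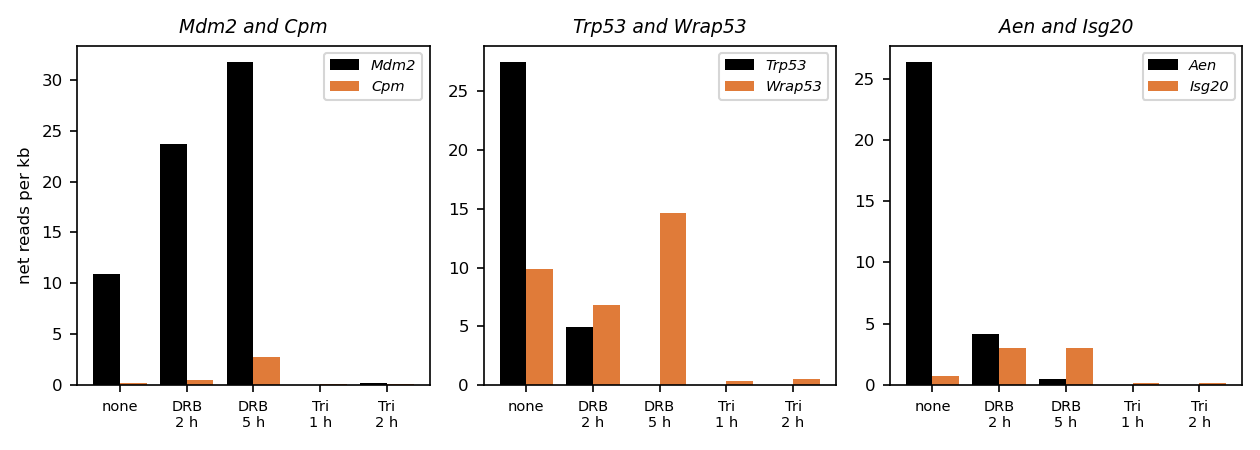
Net reads per kilobase (vertical axes from 0) of Mdm2, Trp53 and Aen (black) and of a neighbouring gene of each (orange) without drug (none), in DRB and in triptolide (Tri). Cpm is at 2.80 and Wrap53 at 14.7 after 5 h of DRB, each above its own untreated bar, and Isg20 is at 3.03 at both DRB times against 0.721 untreated.

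Likeness to Mdm2 was measured as the Euclidean distance over the 4 log2(value + 1) differences from no drug. It was taken among the 7162 genes that passed the filter and also reached 20 net reads in any condition. The 5 nearest were Grcc10 (distance 1.12), Rbm17 (1.28), a splicing factor gene, Cables2 (1.35), Hist1h2bg (1.90), a replication-dependent histone gene, and Wrap53 (1.94). Grcc10 was at 219% and 203% of untreated in the DRB columns from 79 and 73 net reads, Rbm17 at 94.0% and 206%, Cables2 at 384% and 135%, and Hist1h2bg, with 12 to 24 net reads, at 200.0% and 108%. The 3 genes nearest to Cdkn1a were Gm11627 (0.25), Ythdf2 (0.26), an RNA methylation reader gene, and Taf7 (0.28), a TFIID subunit gene. Ythdf2 was at 22.0% and 19.4% of untreated in DRB, beside 26.0% and 19.2% for Cdkn1a.

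The rest of the p53 pathway was followed through 56 further genes in 5 lists, all found in the table, of which 45 had at least 20 net reads without drug. None of these 45 had a value above the untreated one in any drug column on the deposited scale. The minimum leaves out 11 genes that were low without drug, of which 4 were above their untreated value in some drug column, each from 8 or fewer net reads. Of these, Sfn, the gene of the 14-3-3 sigma protein, had 5 net reads after 2 h of DRB against 3, Rrm2b, a ribonucleotide reductase subunit gene, had 8 after 5 h against 7, and Cdkn2a and Trp53inp2 were listed at 0 without drug. The median of the 45 genes was 20.6% of untreated after 2 h and 4.17% after 5 h of DRB, beside 20.0% and 1.24% for all genes. All 56 genes together kept 27.2% (26.0 to 28.4) and 6.21% (5.69 to 6.76) of their net reads, beside 26.7% and 7.63% for all genes. Of the 45, the highest were Usp2, a deubiquitinase gene, at 86.4% (44.2 to 167) after 2 h, and Apaf1, the apoptosome scaffold gene, at 68.6% (39.02 to 119) after 5 h, both with under 1 net read per kb. These directions rest on the deposited scale: of the 42 genes of the lists above the filter, 33 were lower and none higher by the size rule at 2 h and 40 and none at 5 h, where 66.1% and 85.5% of all genes were lower. With equal totals 9 were lower and 5 higher at 2 h and 20 and 7 at 5 h, where 23.6% of all genes were lower and 12.5% higher at 2 h, and 53.4% and 14.9% at 5 h. Quantile normalization gave 7 lower and 1 higher at 2 h and 7 of each at 5 h, where 6.38% and 7.48%, then 16.2% and 14.9%, of all genes were. The same shares of all genes, 66.1% lower after 2 h and 85.5% after 5 h of DRB, stand behind each list count below, and nothing particular to a list is read from them. Genes listed at 0 below stand beside 9.47% at 2 h and 47.3% at 5 h of the 8560 genes with signal without drug. All directions of list genes below are on the deposited scale. The highest and lowest genes of each list are named among those with at least 20 net reads without drug. Of these, Apaf1, Polk, Cop1, Usp2, Atm, Hipk2 and Sesn1 did not pass the filter and are not in the counts of lower genes.

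Of 11 growth arrest and stress targets above the filter, 6 were lower after 2 h of DRB and 10 after 5 h, with none higher. Gtse1, a p53-binding mitotic protein gene, kept 61.1% (51.4 to 72.5) at 2 h, and Btg2, an antiproliferative gene, 14 of its 28 net reads at 5 h; Cdkn1b and Plk3 were listed at 0 at 2 h and Ccng2 at 5 h. Of 10 apoptosis targets above the filter 8 and then all 10 were lower. Apaf1 was the highest at both times (71.4% at 2 h), Phlda3, an Akt inhibitor gene, was the lowest at 2 h with 9.62% (2.997 to 23.9), and Bax, the pore-forming death effector, and Siva1 were listed at 0 at 5 h. Of 5 repair and metabolism targets above the filter 4 were lower at each time. Xpc, a DNA damage sensor gene, had 1 net read against 103 at 2 h, and Pcna, the replication clamp gene, was listed at 0 at 5 h beside Xpc. Ddb2 and Polk were the highest of this list, at 38.5% at 2 h and 48.1% at 5 h.

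Of 6 other genes above the filter whose products restrain p53, 5 were lower after 2 h of DRB and all 6 after 5 h, beside 66.1% and 85.5% of all genes. The list of 8 kept 14.6% (12.4 to 17.2) and 2.45% (1.64 to 3.54) of net reads, beside 26.7% and 7.63% for all genes. Ppm1d, a phosphatase gene that is itself a p53 target, was the highest at 5 h with 26.3% (15.4 to 42.9), and Cop1, a ubiquitin ligase gene, the lowest at 2 h with 3.41% (0.690 to 10.3). Huwe1, Rchy1, Cul4a and Usp2 were listed at 0 at 5 h. Of 10 genes above the filter that stabilise or activate p53, all were lower at both times. Rpl11, a ribosomal protein gene whose product binds Mdm2, kept 40.8% (32.9 to 50.5) at 2 h, and Atm, the DNA damage kinase gene, was lowest at 2 h with 10.7% (3.77 to 24.8) and highest at 5 h with 16.1% (6.99 to 32.7). Kat5, Usp10, Trp53bp1, Hipk2 and Chek2 were listed at 0 at 5 h. In triptolide the 56 genes kept 1.64% (1.39 to 1.93) and 2.50% (2.19 to 2.86), beside 5.91% and 4.98% for all genes. The highest single values were Plk3 at 25.0% (9.95 to 55.4) after 1 h and Sesn1 at 23.8% (7.01 to 64.9) after 2 h.

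**Figure D5:**
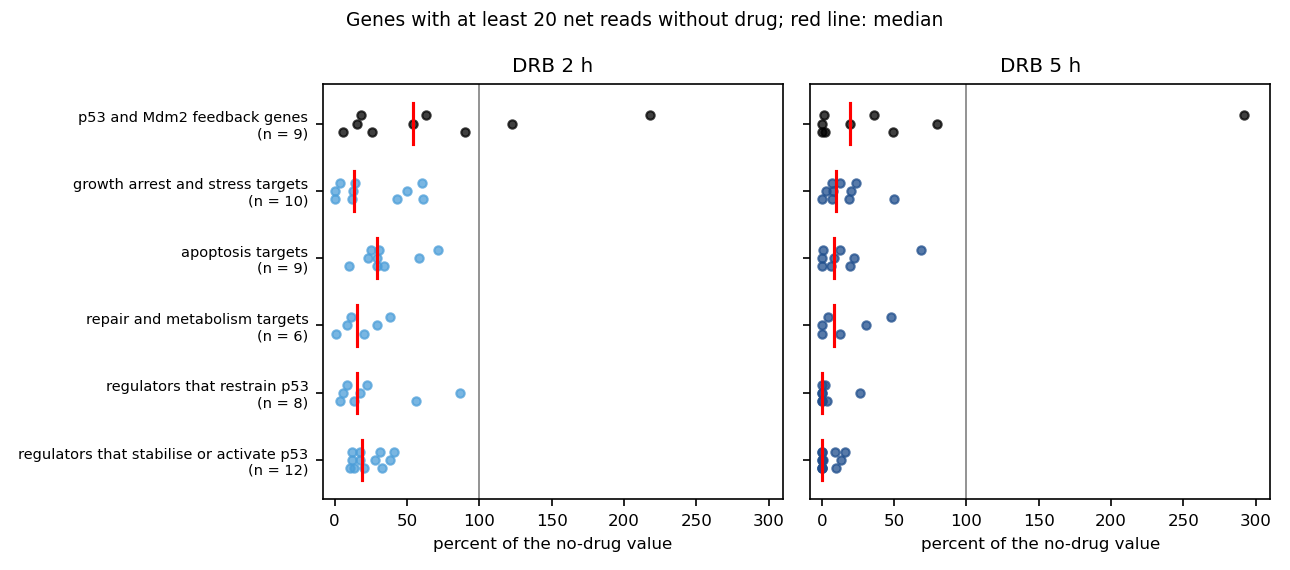
Percent of the untreated value kept in DRB (horizontal axes, linear) by the 9 genes (black) and by genes of 5 p53 pathway lists with at least 20 net reads without drug (blue), 1 point per gene, red lines at medians. Mdm2 at 218% and 292% and Zmat3 at 123% after 2 h are the points above 100%; no plotted gene of the 5 lists exceeds 86.4%.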

How the data were processed

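The labels give 10 groups with 2 replicates each. Bowtie and the GRCm38 build are named in the submitters' processing notes. The authors deposited a signal per condition, reads divided by gene length in kb, with identifiers of Ensembl 72 per the file headers; how the authors combined replicates and subtracted unlabelled libraries is not given in the sources used here.

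Net reads were recovered from the step between values of a gene, which is set by its length. Of 17512 genes with signal, 17511 received a length: 10265 equal to the GENCODE M21 span, 6466 within 20% of it and 780 from the step alone, which can be shorter than the gene. Differences are of log2(value + 1), with no further scaling, among genes that exceed 1 read per kb in any condition, and a size of at least 1 counts as lower or higher. The 7 comparisons have no test because the table has 1 column per condition. Intervals are Clopper-Pearson (scipy 1.17.1, Python 3.11.15). The procedure was tested on simulated data with every length set to the annotated span and with plain Poisson counts. Other lengths and the removal of background were not simulated, so the test does not cover them.

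The genes, pathway lists and tests were chosen with earlier results of these data known. Named by rule were the 9 genes, the lowest and highest genes per list with at least 20 net reads without drug (in triptolide the highest over all lists), the nearest genes by profile and the neighbours. Which neighbours were given in more detail was chosen after their values were seen. The alternatives were pseudocounts of 0.1 and 10, no filter, at least 20 net reads, equal totals and quantile normalization.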

Additional observations from a re-analysis of the deposited data

How the results depend on the processing

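Counts of lower and higher genes among the 9 kept within 1.5 times without a filter on low values and with at least 20 net reads in 1 condition. A pseudocount of 0.1 gave 2 higher genes between the triptolide times in place of 0. A pseudocount of 10 gave 0 higher genes after 2 h of DRB, 0 lower from 2 h to 5 h of DRB, and 1 higher in DRB than in triptolide at 2 h. Equal totals, which multiply the DRB columns by 3.74 and 13.1 and the triptolide columns by 16.9 and 20.1, moved the median of all genes from -1.27 to -0.28 after 2 h of DRB and from -1.86 to -1.12 after 5 h; quantile normalization moved these to -0.02 and 0.07. After 2 h of DRB, equal totals gave 1 lower and 4 higher of the 9 genes and quantile normalization 1 and 3. After 5 h the higher genes were 5 under both, with 3 lower under quantile normalization. From 2 h to 5 h of DRB, 4 were higher under both, with 3 lower under quantile normalization. After 2 h of triptolide 1 was higher under both, and between the triptolide times 2 and 1 were. Over all 8773 genes, 2068 were lower and 1100 higher after 2 h of DRB with equal totals, against 5800 and 193. 

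Log2 differences past the size rule that changed sign, given for equal totals and then quantile normalization, were Cdkn1a (1.26 and 1.13) and Zmat3 (2.11 and 1.87) for 5 h of DRB, Zmat3 (0.040 and 0.31) from 2 h to 5 h, Mdm4 for 1 h (0.24 and 0.64) and 2 h (0.69 and 0.67) of triptolide, Trp53inp1 for 2 h of triptolide (1.55 and 1.37), and Trp53inp1 in DRB against triptolide (-0.094 and -0.30). Sign changes of differences within the size rule on the deposited scale, such as Cdkn1a from 2 h to 5 h of DRB, are not in this list. These scalings assume that the columns should have equal totals or equal distributions. The pseudocount of 0.1 kept 3 of the 5 genes nearest to Mdm2. No paired analysis was possible because the table has 1 column per condition, and leaving out a replicate was not run for the same reason. Ratios from fewer than 10 net reads (Gadd45a, Ccng1 and Aen in DRB, Mdm2 and Trp53inp1 in triptolide) are limited by depth.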

Other observations

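Among genes above the filter, 7162 also reached 20 net reads in any condition. Of these, 296 were above their untreated value after 2 h of DRB and 124 after 5 h. Without the filter 9113 genes reached 20 net reads, and those below it are not in these counts. In 32 the value went up at both steps, and in 10 of these the Poisson interval of each step lay above 1. Chosen after their values were seen, the 10 were Mdm2, its neighbour Cpm, Chd5, a chromatin remodeller gene, Dnah2, a dynein heavy chain gene, Matn2, Ccdc30, Baiap3, Hsbp1l1, Allc and Npc1l1. Of the 10, Mdm2 alone had more than 1 net read per kb without drug (10.9, against at most 0.657 in the other 9). By net reads gained between no drug and 5 h of DRB, Mdm2 with 457 stood in place 2 of all genes, behind St5 with 464 and ahead of Rbm17 with 246.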
